A study of Mus musculus with 8 samples.

Results

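Cytosolic ribosomal protein genes encode the protein part of the ribosome, and 67 of them were read from an array of 22180 genes in mouse hepatic macrophages. Members were all genes with a row of exactly 1 gene symbol that followed the Rpl or Rps naming of the large or small subunit, with Rpsa, Rplp0, Rplp1 and Rplp2, without the Rps6k kinases and without rows marked as pseudogenes. Of the 67 members, 42 belong to the large subunit and 25 to the small subunit. A further 12 genes of the same naming were present only on rows shared with another gene, and they are described apart. The naming rule uses no measured value, although members were chosen with earlier results of these data known. RefSeq lists 2 of them, Rpl6l and Rps4l, as pseudogenes.

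The macrophages came from male FVB/N mice aged 8 weeks, all of which had received acetaminophen, an analgesic that injures the liver in overdose, at 350 mg/kg into the peritoneum. The controls had been given 25 µg of recombinant transferrin (rTF), a plasma protein that carries iron, and the other group 50 µg of recombinant CPS1 (rCPS1), a mitochondrial enzyme of the hepatocyte urea cycle. Both proteins went into the tail vein 12 h before acetaminophen, so protein and amount cannot be told apart. Each group held 4 arrays. Every sample title names the same mouse number, the labels do not settle whether replicates were separate mice, and p-values therefore speak of differences among these 8 samples alone, where the spread could be technical. Total RNA was measured on Affymetrix arrays, and a level below is a log2 value after RMA, so 1 unit is a 2-fold change of signal.

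A cytosolic ribosome joins a large subunit, which forms peptide bonds, to a small subunit, which holds the mRNA and reads its codons. Most of its protein genes are transcribed steadily in every cell. Their mRNAs usually begin with a run of pyrimidines (a TOP motif), through which the kinase complex mTORC1 and the RNA-binding protein LARP1 control their translation and stability together. Activated macrophages are known to raise protein synthesis through mTORC1.

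The promoters of the 8 members of smallest p that had an entry are shown, to set those with a pyrimidine run near the annotated start beside those without. RefSeq promoter entries (GRCm38.p6) were found for 52 of the 67 members, 61 promoters in all. The letters below are read 5′ to 3′ on the transcribed strand, 60 before and 20 from the annotated start. Capitals mark a run of at least 6 letters that are C or T and that overlaps the stretch from 5 letters before to 10 letters after the start, and the letters CCGGAA or TTCCGG, which are the core bound by ETS factors. The windows lie at chr13:90923062-90923141 (plus strand, Rps23), chr10:80292371-80292450 (plus, Rps15), chr17:28328411-28328490 and chr17:28328505-28328584 (plus, the entries a and b of Rpl10a), chr9:44407654-44407733 (plus, Rps25), chr11:114668520-114668599 (plus, Rpl38), chr9:120127706-120127785 (plus, Rpsa), chr5:121204441-121204520 (plus, Rpl6) and chr17:33955646-33955725 (minus, Rps18).
Rps23: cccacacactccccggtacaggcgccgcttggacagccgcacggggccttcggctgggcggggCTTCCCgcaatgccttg
Rps15: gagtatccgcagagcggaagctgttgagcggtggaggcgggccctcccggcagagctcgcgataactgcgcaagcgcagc
Rpl10a, entry a: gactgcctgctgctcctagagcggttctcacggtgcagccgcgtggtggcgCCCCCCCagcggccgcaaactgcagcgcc
Rpl10a, entry b: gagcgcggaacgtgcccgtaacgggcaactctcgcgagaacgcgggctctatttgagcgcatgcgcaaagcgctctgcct
Rps25: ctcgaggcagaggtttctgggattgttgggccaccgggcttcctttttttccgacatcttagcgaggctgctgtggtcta
Rpl38: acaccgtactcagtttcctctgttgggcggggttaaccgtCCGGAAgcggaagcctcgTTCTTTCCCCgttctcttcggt
Rpsa: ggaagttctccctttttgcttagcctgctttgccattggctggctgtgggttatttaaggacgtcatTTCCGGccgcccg
Rpl6: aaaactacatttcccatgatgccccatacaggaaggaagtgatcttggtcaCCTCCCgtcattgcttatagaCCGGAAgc
Rps18: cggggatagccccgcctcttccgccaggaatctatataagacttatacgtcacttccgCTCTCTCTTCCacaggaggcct

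Rps15, Rps25, Rpsa and entry b of Rpl10a have no run by this rule. The run was found in 29 of the 61 member promoters (47.5%) and in 25.3% of 32851 promoters of all genes. On the other strand, by the same rule, it was found in 6.56% of the member promoters and in 28.2% of all. CCGGAA or its reverse complement, on either strand of the whole 300 letters, was present in 49.2% of member promoters and in 14.9% of all. Rps25, Rps18 and entry b of Rpl10a hold it outside the windows printed. Neither match marked off the members by how they differed between groups: the 28 members with a run had a median log2 difference, rCPS1 minus rTF, of -0.11, and the 24 with an entry and no run had -0.12. For the ETS core the medians were -0.093 in 30 members with it and -0.13 in 22 without. A match is a description of letters in the window and not a site, and TOP runs that start away from the annotated position are missed. The rule also counts runs that end before the annotated start, as in entry a of Rpl10a and in Rpl6. Such a run would lie outside an mRNA that begins there, so the counts are not counts of TOP mRNAs.

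Correlations between arrays were 0.967 to 0.983 across rows, and medians of all rows lay between 3.55 and 3.68. The lowest median was that of rTF replicate 2, and the highest were those of rCPS1 replicates 3 (3.68) and 4 (3.67). The members ran the other way on these arrays, highest on the first and lowest on the others. A link between array medians and members was not tested. One control array stood apart for the members. On rTF replicate 2, 53 of the 67 members lay above their own mean over the 8 arrays and 27 were at their highest, whereas rTF replicate 4 was highest for 5 and rCPS1 replicate 2 for 1. Markers of several other cell types were also at their highest on this array. For T and NK cells the mean log2 level over 12 genes was 7.25 on rTF replicate 2, 6.02 to 6.35 on the other rTF arrays and 5.80 to 6.25 on the rCPS1 arrays. Cell cycle genes (6.22 there, 4.81 to 5.83 on the other 7 arrays), dendritic cell markers (6.43, 5.80 to 6.19) and red cell precursor markers (5.13, 3.39 to 4.42) did so too. Neutrophil markers did so by the list mean (6.71, 4.75 to 6.59) but not by the list median. That median was 7.59 on rTF replicate 3 and 7.26 on rTF replicate 2. S100a8, S100a9, Cxcr2, Retnlg and Mmp8 were highest on rTF replicate 3, and the other genes of the list on rTF replicate 2. No marker list has a true 0 after RMA. All 9 Kupffer cell markers lay above the median level of all genes, as did all 8 sinusoidal endothelial markers and 8 of 9 hepatocyte markers, so markers of macrophages and of other liver cells were both read. The endothelial list mean was 11.48 to 11.71 over the 8 arrays, above that of Kupffer cell markers (9.14 to 10.04) on each array. Hepatocyte markers averaged 7.37 to 8.64. Probe sets differ in brightness, so these levels are not shares of cells.

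No ribosomal protein gene differed between rCPS1 and rTF at the threshold, but most leaned the same way by a small amount. With limma, 0 of the 67 members had an adjusted p under 0.05, where 0.0% of all 22180 genes did, and the smallest adjusted p of a member was 0.98. The log2 difference was below 0 in 55 members and above 0 in 12, where 54.4% of all genes lay below 0. The median difference was -0.12 over the members and -0.018 over all genes, and the middle of the members' distribution ran from -0.17 to -0.054 (quartiles). At an unadjusted p under 0.05 there were 5 members lower and 0 higher, beside 2.79% and 1.88% of all genes. The groups did not overlap for 6 members, all of them lower in rCPS1, beside 1.97% of all genes lower and 0.947% higher. Leaving out rTF replicate 2 brought the median to -0.066, with 52 members still below 0 and a median of -0.0097 over all genes. The count at an unadjusted p under 0.05 rested on single arrays as well: it was 3 without rTF replicate 1 or 3, 1 without rTF replicate 4 and 2 without rCPS1 replicate 4.

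Averaged over the 67 members, the log2 level was 7.20, 7.28, 7.22 and 7.23 on rTF replicates 1 to 4 and 7.13, 7.17, 7.10 and 7.09 on rCPS1 replicates 1 to 4. All 4 rCPS1 means were under the lowest rTF mean. The group means were 7.23 ± 0.032 and 7.12 ± 0.033 (SD, n = 4 each), a difference of -0.11. The low end was shared by rCPS1 replicate 3, lowest of the 8 arrays for 22 members, rCPS1 replicate 4 for 16 and rCPS1 replicate 1 for 14, while rCPS1 replicate 2 was lowest for 0. Beside this, neutrophil markers were lower in rCPS1 for 10 of 10 genes (median log2 difference -1.08, list mean 5.88 to 6.71 with rTF and 4.75 to 5.57 with rCPS1). Monocyte markers were lower for 8 of 8 (median -0.64, 8.26 to 8.73 and 7.54 to 7.80), T and NK cell markers for 11 of 12 (median -0.50) and cell cycle genes for 5 of 5 (median -0.26, 5.23 to 6.22 and 4.81 to 5.77). Without rTF replicate 2 the T and NK cell median was -0.23 and the cell cycle median -0.025. Kupffer cell markers were higher for 9 of 9 (median 0.21, and 0.034 without rCPS1 replicate 3, with list means of 9.14 to 9.73 and 9.24 to 10.04). Hepatocyte markers were lower for 7 of 9 (median -0.063), sinusoidal endothelial markers higher for 6 of 8 (median 0.067) and B cell markers higher for 6 of 6 (median 0.14). Each of these 3 medians changed sign when certain single arrays were left out, furthest to 0.057 without rTF replicate 3 for hepatocytes and, without rTF replicate 1, to -0.010 for endothelium and -0.037 for B cells. Stellate cell markers were lower for 6 of 6 (median -0.20), dendritic cell markers for 4 of 4 (median -0.21) and red cell precursor markers for 2 of 2 (median -0.37), and bile duct markers were higher for 3 of 4 (median 0.20). The stellate cell median was -0.041 without rTF replicate 3 and -0.46 without rTF replicate 1. Without rTF replicate 2 the dendritic cell median was -0.082 and the red cell precursor median -0.068. Their part in the level of the ribosomal protein genes was not tested. In a bulk sample, fewer cells of a type and less RNA per cell cannot be told apart.

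**Figure D1:**
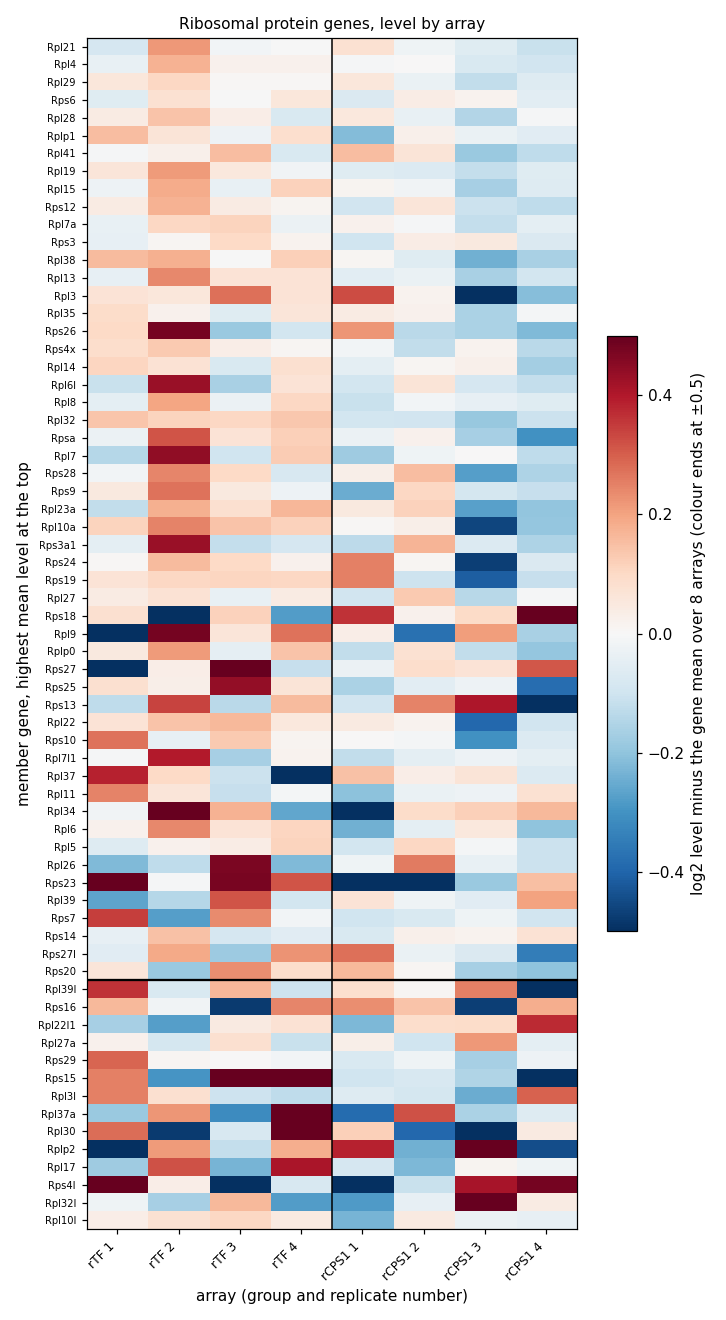
Log2 level of each of the 67 members (rows, ordered by mean level) on each of the 8 arrays (columns), minus the gene's mean over the 8 arrays, with the colour scale ending at 0.5 in either direction. The horizontal line separates the 53 members at or above the median level of all genes from the 14 below it, and rTF replicate 2 is the column in which 53 of the 67 members lie above their own mean.

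The large and the small subunit did not separate from each other. In the large subunit 35 of 42 members were below 0, with a median log2 difference of -0.12, and the mean level went from 7.39 ± 0.056 under rTF to 7.28 ± 0.028 under rCPS1 (SD, n = 4 each). In the small subunit 20 of 25 were below 0, with a median of -0.13, and the mean went from 6.97 ± 0.011 to 6.86 ± 0.043 (SD, n = 4 each). The large minus the small mean was 0.35, 0.49, 0.37 and 0.43 on rTF replicates 1 to 4 and 0.40, 0.42, 0.44 and 0.44 on rCPS1 replicates 1 to 4. The rCPS1 values all lay inside the range of the rTF values. The change in this gap between groups was 0.014, against SDs of 0.064 and 0.020. The gap is not a ratio of the subunits, since probe sets differ in brightness for the same amount of RNA.

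Among the lower members, Rps23, a protein of the decoding centre of the small subunit, had the smallest p and the largest difference. Rps23 (probe set 17289031, chromosome 13) read 5.75, 5.17, 5.65 and 5.49 on rTF replicates 1 to 4 and 4.48, 4.54, 4.99 and 5.32 on rCPS1 replicates 1 to 4. The groups met at the edge, since rCPS1 replicate 4 lay above rTF replicate 2. Only 1 single-symbol row read Rps23. Its mean of 5.175 was above the median level of all genes (4.19) but under that of the members (7.32). The log2 difference was -0.68 ± 0.21 (SE), a signal ratio of 0.623, with an unadjusted p of 0.00771 and an adjusted p of 0.98 in limma over all genes. Rpl32 (probe set 17469936, chromosome 6), a protein of the large subunit, was the tightest: 9.54, 9.52, 9.51 and 9.54 with rTF and 9.31, 9.31, 9.21 and 9.30 with rCPS1. The groups were apart by more than the range within either of them. Its difference was -0.24 ± 0.094 (unadjusted p = 0.0267).

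Rpl10a (probe set 17335330, chromosome 17), which forms the mobile L1 stalk beside the tRNA exit site, read 8.61, 8.74, 8.64 and 8.61 with rTF and 8.51, 8.53, 8.04 and 8.30 with rCPS1. The groups did not overlap, and rCPS1 replicate 3 lay furthest down. The difference was -0.31 ± 0.13 (unadjusted p = 0.039). Rps25 (probe set 17516607, chromosome 9), which some viral and cellular mRNAs need for initiation at an internal entry site, read 6.44, 6.39, 6.79 and 6.42 with rTF and 6.20, 6.30, 6.33 and 5.98 with rCPS1. These groups did not overlap either, although rTF replicate 3 was well above the other controls. Rps25 differed by -0.31 ± 0.13 (unadjusted p = 0.045).

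Rps15 (probe set 17235292, chromosome 10), a head protein of the small subunit, was a dim row that read 3.42, 2.87, 3.88 and 3.76 with rTF and 3.06, 3.08, 3.01 and 2.23 with rCPS1. Here rTF replicate 2 lay within the rCPS1 values, the opposite of its place for most members. The difference was -0.63 ± 0.26 (unadjusted p = 0.0323), from a level under the median of all genes (4.19). Rpl38, which mouse embryos need to translate certain Hox mRNAs, read 10.46, 10.48, 10.30 and 10.42 with rTF and 10.31, 10.24, 10.06 and 10.14 with rCPS1. Only rCPS1 replicate 1 reached the lowest control. Its difference was -0.23 ± 0.11 (unadjusted p = 0.0559).

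Rpsa, a small subunit protein also known as a laminin receptor precursor, read 9.26, 9.60, 9.35 and 9.41 with rTF and 9.26, 9.31, 9.12 and 8.98 with rCPS1 (difference -0.24 ± 0.12, unadjusted p = 0.0784). The highest control was again rTF replicate 2. Rpl6, a large subunit protein, differed by -0.22 ± 0.11 (unadjusted p = 0.0791), and Rpl22, which developing T cells need, by -0.21 ± 0.12 (unadjusted p = 0.111). Rpl22 was 1 of the 6 members without overlap, at 6.11 to 6.22 with rTF and 5.66 to 6.10 with rCPS1. The others, beside Rpl10a, Rpl32 and Rps25, were Rpl19 (-0.15 ± 0.10) and Rps29 (-0.15 ± 0.11), both singled out after their values were seen. The 34 members not named by the rule on genes ran from -0.38 (Rpl30 ± 0.29, a dim row) to 0.019 (Rps14 ± 0.10), 33 of them below 0.

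**Figure D2:**
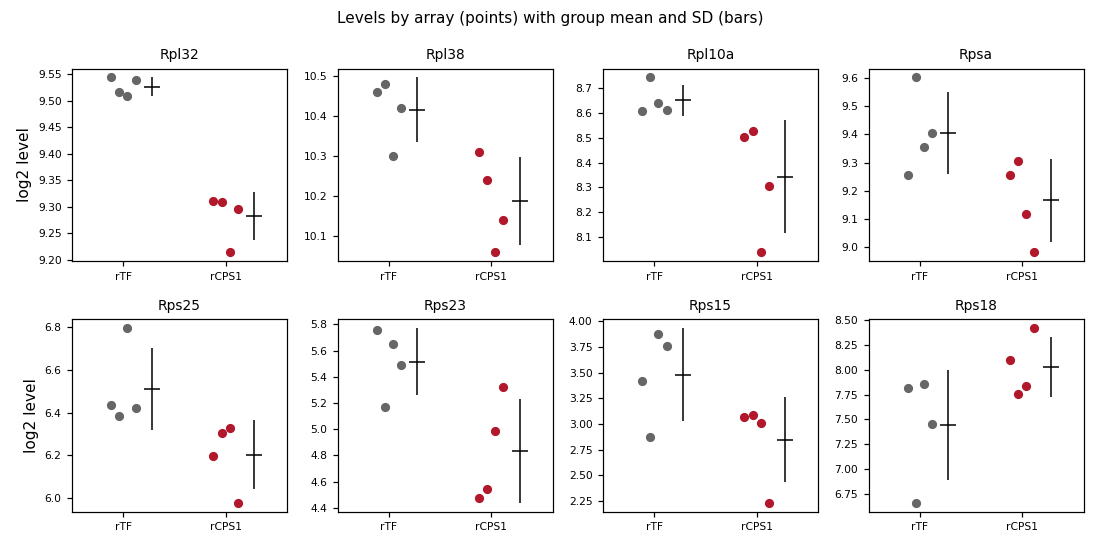
Log2 level of 8 members on each array (points, grey for rTF and red for rCPS1, in order of replicate number) with the group mean and SD (bars, n = 4), each panel on its own scale. Rpl32, Rpl10a and Rps25 have groups that do not overlap, Rps23, Rpl38 and Rpsa overlap at the edge, Rps15 has rTF replicate 2 among its rCPS1 values, and Rps18 runs the other way.

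Of the 12 members above 0, Rps18, a head protein of the small subunit, had the smallest p. Rps18 (probe set 17547769, chromosome 17) read 7.82, 6.66, 7.85 and 7.46 with rTF and 8.10, 7.76, 7.83 and 8.42 with rCPS1. The lowest value was that of rTF replicate 2, and the groups overlapped. The log2 difference was 0.58 ± 0.26 (unadjusted p = 0.0507), and 0.32 without rTF replicate 2. Its other single-symbol rows were dimmer, at 3.13 and 3.62, and differed by -0.033 ± 0.13 and 0.018 ± 0.17. The size of the difference was therefore read by the brightest of the 3 rows only.

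The remaining members above 0 had small differences for their error. Rps27, a zinc-binding small subunit protein, read 5.77, 6.71, 7.22 and 6.56 with rTF and 6.64, 6.76, 6.74 and 6.98 with rCPS1 (difference 0.22 ± 0.26). The rTF values spread over more than the rCPS1 values and enclosed them. Without rTF replicate 1 the difference of Rps27 was -0.047. Rpl22l1 differed by 0.16 ± 0.15, Rplp2 by 0.16 ± 0.26, Rpl32l by 0.15 ± 0.18, Rpl39 by 0.094 ± 0.14 and Rpl37 by 0.089 ± 0.18. Rpl27a (0.051 ± 0.11), Rpl26 (0.047 ± 0.17) and Rps16 (0.044 ± 0.20) were closer still to 0. Of these, Rps27, Rplp2, Rpl27a, Rpl26 and Rps16 also lay on brighter shared rows with differences of the opposite sign, given below.

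**Figure D3:**
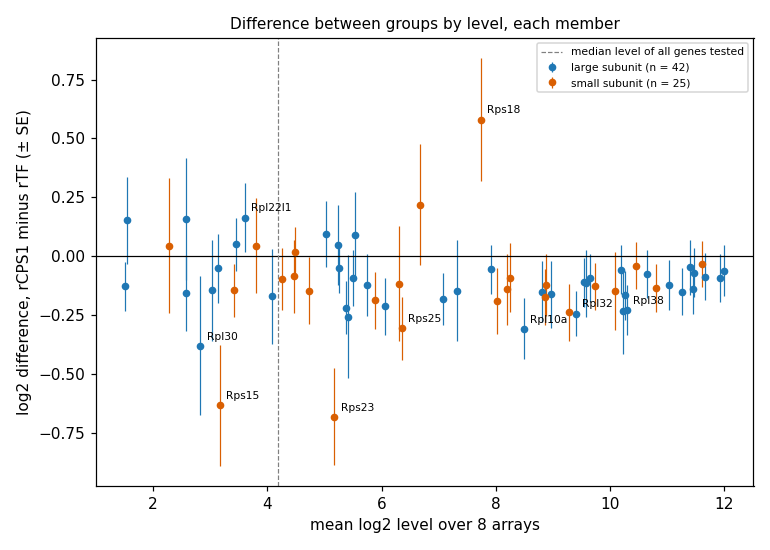
Log2 difference, rCPS1 minus rTF, of each member (vertical axis, with its SE) against its mean log2 level over the 8 arrays (horizontal axis), for the large subunit (blue, 42 members) and the small subunit (orange, 25). The dashed line is the median level of all genes, 4.19, and to its right 47 of 53 members lie below 0.

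Most members, and likewise most of those below 0, lay on rows at or above the median level of all genes. At or above the median level of all genes there were 53 members, of which 47 were below 0 with a median of -0.12, where 53.3% of all genes of that level lay below 0. Under that level 8 of 14 members were below 0 with a median of -0.090, where 55.4% of all such genes were. Among the brightest, Rps6, the substrate of the S6 kinases downstream of mTORC1, read 11.56, 11.70, 11.62 and 11.68 with rTF and 11.55, 11.66, 11.64 and 11.57 with rCPS1. The groups lay across each other, and the difference was -0.035 ± 0.098. Rps4x, an X-linked small subunit gene, read 9.74 to 9.87 with rTF and 9.60 to 9.75 with rCPS1 (difference -0.13 ± 0.099). Rpl3, which reaches towards the peptidyl transferase centre, differed by -0.23 ± 0.18, its rCPS1 arrays reading from 9.62 to 10.55. Without rCPS1 replicate 3 the difference of Rpl3 was -0.073 and without rCPS1 replicate 1 it was -0.38.

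Ordered by place in the ribosome, no group of members contained a call, as 0 of all 22180 genes were called. Of the acidic stalk, which recruits elongation factors, Rplp0 read 7.12, 7.28, 7.03 and 7.22 with rTF and 6.95, 7.15, 6.95 and 6.88 with rCPS1, a difference of -0.18 ± 0.11. Rplp1 was near the top of the array scale at 11.42 to 11.60 with rTF and 11.23 to 11.47 with rCPS1 (difference -0.14 ± 0.10). Rplp2 read 2.00, 2.79, 2.46 and 2.76 with rTF and 2.97, 2.34, 3.20 and 2.14 with rCPS1, on a dim row (difference 0.16 ± 0.26). In all 3 stalk genes the groups overlapped. Rpl5 and Rpl11, which carry 5S rRNA into the large subunit and hold back Mdm2 when ribosome assembly fails, differed by -0.052 ± 0.10 and -0.093 ± 0.12. Of 7 measured proteins at the exit tunnel 5 were below 0 (median -0.093, and -0.047 without rTF replicate 4). In the head of the small subunit 9 of 11 were below 0 (median -0.14, from -0.63 for Rps15 to 0.58 for Rps18), and in its body and platform 10 of 12 (median -0.13, and -0.065 without rTF replicate 2). Of 12 measured genes whose mutation causes Diamond-Blackfan anemia in people, 11 were below 0 (median -0.13, and -0.083 without rTF replicate 2), and the exception was Rpl26. The lists share members and are not independent of each other.

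The paralogs, some of which replace a standard protein in certain tissues, were mostly dim and did not form a pattern of their own: 5 of 7 were below 0 (median -0.086, and -0.034 without rTF replicate 2). Rpl22l1, the paralog of Rpl22, read 3.43, 3.32, 3.64 and 3.67 with rTF and 3.37, 3.69, 3.69 and 3.97 with rCPS1. Its difference was above 0 and that of Rpl22 below 0, with groups of Rpl22l1 that overlapped. The difference between these 2 genes' changes was not tested. Rps27l, a p53 target and the paralog of Rps27, differed by -0.086 ± 0.16, and Rpl7l1, the paralog of Rpl7, by -0.12 ± 0.13, with Rpl7 at -0.16 ± 0.14. The muscle paralog Rpl3l differed by -0.052 ± 0.15, and the testis paralogs Rpl10l and Rpl39l by -0.13 ± 0.10 and -0.17 ± 0.20. Rpl10l stood at 1.28 to 1.62 on the 8 arrays, Rpl3l at 2.90 to 3.44 and Rps4l at 1.59 to 2.80 (difference 0.044 ± 0.29), all under the median level of all genes.

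Several rows were available for many members, and they did not read alike. For the 25 members with more than 1 single-symbol row, the brightest and the dimmest row differed by a median of 4.29 log2 units, and by over 3 units in 19. The 34 further single-symbol rows, which took no part in the count of members, had a median log2 difference of -0.039, with 20 below 0. Those with a mean at or above 8 had 6 of 7 below 0 and a median of -0.061. In 3 members (Rps12, Rpl23a and Rps19, singled out after their values were seen) some rows held identical values. Such copies were counted as 1 row for the 34 further rows. They were not merged for the 25 members and their row range, where Rpl23a had 2 rows and a range of 0.0. The second row of Rplp0, at 5.33, differed by 0.22 ± 0.18, and that of Rpl7, at 3.98, by 0.31 ± 0.19, both against the sign of the brighter row. The second row of Rplp1, at 3.91, had the sign of the brighter row, with a difference of -0.46 ± 0.12 and groups that did not overlap. It was the only one of the 34 with an unadjusted p under 0.05 (0.00456). These rows were singled out after their values were seen.

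Rows that also carry the symbol of a pseudogene or neighbour held the brighter signal for some members. Of 20 members with such a shared row, 10 were brighter there, and 8 by over 3 log2 units. Rpl34 had a mean of 5.41 on its own row and 11.85 on the shared row, Rpl30 2.83 and 10.82, and Rpl27a 3.44 and 10.31. For these 8 members the shared row was below 0 in 8 and the single-symbol row in 3. The differences on the shared rows were -0.17 ± 0.12 for Rpl27a, -0.14 ± 0.12 for Rps16, -0.10 ± 0.12 for Rplp2, -0.049 ± 0.15 for Rpl26 and -0.045 ± 0.12 for Rps27. The shared row of Rps25 differed by -0.47 ± 0.17, without overlap of the groups. Over all 57 shared rows 36 were below 0 (median -0.052), and at a mean of 8 or more 20 of 23 were (median -0.088). The bright shared row of Rplp2 also carries the snoRNA gene Snora52, and that of Rpl37a the microRNA gene Mir682. Such rows cannot be split between their genes.

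Of the 12 genes that were present only on shared rows, 9 were below 0. Rps21 differed by -0.17 ± 0.13, Rpl12, a base protein of the stalk, by -0.10 ± 0.12, Rpl10 by -0.088 ± 0.13, Rpl31, a rim protein of the exit tunnel, by -0.096 ± 0.10 and Rpl36a by -0.042 ± 0.11. Rps15a ran the other way at 0.46 ± 0.25, on a row shared with its pseudogene Rps15a-ps5. The single-symbol row of that pseudogene was at -0.48 ± 0.19. Across 15 rows named for ribosomal protein pseudogenes, 13 were below 0 (median -0.12, levels 1.20 to 10.06), and probes for them may also bind the parent mRNA. Rps21, Rpl12, Rpl31 and Rps15a were singled out after their values were seen.

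**Figure D4:**
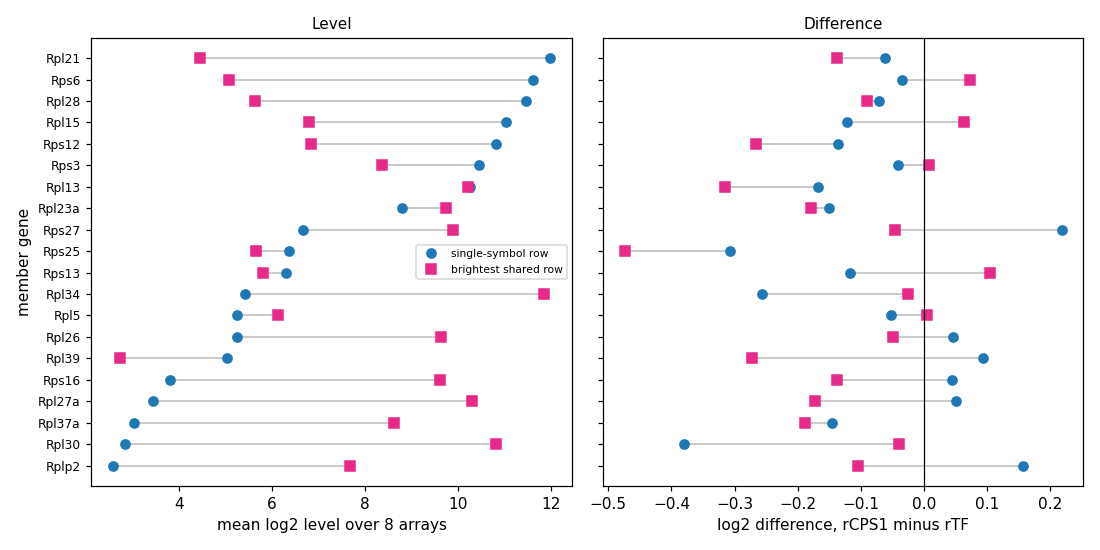
Mean log2 level over 8 arrays (left) and log2 difference, rCPS1 minus rTF (right), of the 20 members that have both a single-symbol row (blue circles) and a row shared with another gene symbol (pink squares, the brightest one). For 8 members the shared row is brighter by over 3 log2 units, and all 8 of those shared rows lie below 0.

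Introns of many ribosomal protein genes carry small nucleolar RNAs (snoRNAs), which guide chemical changes of rRNA and are released from the same primary transcript. There were 19 snoRNA genes with a row of their own inside the span of a ribosomal protein gene, 13 of them in a member. Of these 13, 6 were below 0 and 7 above (median 0.011). In 6 both the snoRNA and the host were below 0, and in 5 the snoRNA was above 0 while the host was below. Snord83b, in Rpl3, read 4.51, 4.99, 5.20 and 5.60 with rTF and 4.63, 4.15, 3.98 and 4.37 with rCPS1. Only rCPS1 replicate 1 reached the controls, and the log2 difference was -0.79 ± 0.23 (unadjusted p = 0.00584, adjusted p = 0.98). Snord43, also in Rpl3, differed by -0.21 ± 0.19. Snora69, in Rpl39, read 2.75 on rTF replicate 1 and 4.72 to 5.61 on the other 7 arrays. Both snoRNAs were singled out after their values were seen, and strand was not compared.

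Other genes of the translation machinery held no call either, as 0 of all 22180 genes were called. Fau, a ribosomal protein made as a fusion with a ubiquitin-like protein, averaged 9.09 ± 0.11 with rTF and 8.86 ± 0.18 with rCPS1 (SD, n = 4 each), a difference of -0.23 ± 0.12. Among elongation factors and other genes with TOP mRNAs, 11 of 14 were below 0 with a median of -0.080 (-0.046 without rCPS1 replicate 3), such as Eif3f (-0.16 ± 0.11), a subunit of initiation factor 3, and Eef1g (-0.11 ± 0.098), a subunit of elongation factor 1. Of 18 initiation factor genes 9 were below 0 (median -0.011, and -0.041 without rTF replicate 3), with Eif5b, which joins the subunits, at 0.16 ± 0.11 and Eif3l at -0.17 ± 0.13. No gene of these lists passed, in either direction.

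Genes that build ribosomes lay closer to 0 than the members by their median. Of 43 biogenesis factors 26 were below 0 (median -0.041, and -0.0018 without rTF replicate 2). Imp3, part of the small subunit processome, read 8.07, 8.62, 8.43 and 8.08 with rTF and 8.04, 8.11, 7.76 and 7.94 with rCPS1 (difference -0.34 ± 0.15). Nhp2, a protein of the snoRNPs that make pseudouridine, differed by -0.23 ± 0.10, and its groups did not overlap. RNA polymerase I genes were below 0 in 7 of 11 (median -0.026, and -0.081 without rCPS1 replicate 2), with the subunit gene Polr1c at -0.24 ± 0.11 and the promoter factor gene Taf1c at -0.20 ± 0.13. Regulators of mTORC1 and MYC were below 0 in 10 of 14 (median -0.028, and 0.010 without rCPS1 replicate 3), while the kinase gene Mtor stood at 0.13 ± 0.11 and its partner Rptor at 0.17 ± 0.13. None of these genes passed, as no gene of the array did. On rTF replicate 2 the elongation and biogenesis lists were at their highest of the 8 arrays, at 9.34 and 7.52. The large subunit was highest there too, at 7.46. The small subunit was highest on rTF replicate 3, but its rTF means ran only from 6.965 to 6.986. Rps18 read 6.66 on rTF replicate 2 and 7.85 on rTF replicate 3, and Rps15 read 2.87 and 3.88. The order of these close means can rest on single genes such as these.

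**Figure D5:**
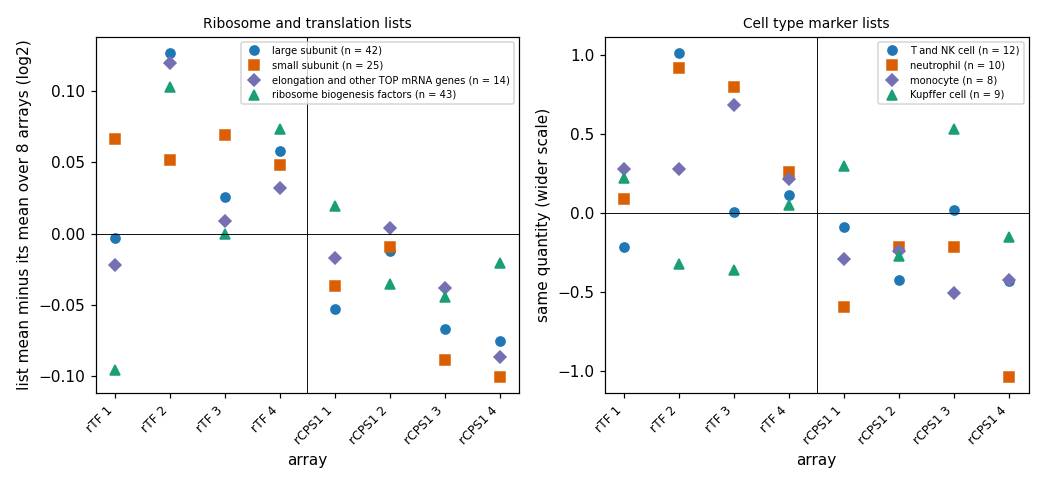
Mean log2 level of each list on each array minus the list's mean over the 8 arrays, for ribosome and translation lists (left) and cell type marker lists (right, on a wider scale). The large subunit stands highest on rTF replicate 2, as do the elongation, biogenesis, T and NK cell and neutrophil lists. The neutrophil list does so by its mean and not by its median.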

How the data were processed

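RNA of 8 samples was measured on Affymetrix arrays. The deposited values are log2 levels that the authors produced by RMA, which corrects background, quantile-normalizes and summarizes probes, per the submitters' processing notes, which also name limma and give no versions. Because RMA quantile-normalizes probes, a shift common to almost every gene is largely hidden. The deposited values of rows still differed in distribution, with array medians from 3.55 to 3.68. Quantile normalization of these values brought the members' median log2 difference from -0.12 to -0.14. Not given in the sources used here are the isolation of the macrophages, the time from acetaminophen to isolation and the filters on probes.

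Of 41345 rows, 23521 had exactly 1 symbol in the platform annotation, 1814 several and 16010 none. The row of highest mean stood for a gene, giving 22180 genes without a filter on dim rows. All 67 members matched RefSeq by Entrez ID and 0 symbols changed. Groups and replicate numbers came from the sample titles. The groups were compared in R 4.3.3 by lmFit and eBayes of limma 3.58.1 (two-sided, no covariate) with Benjamini-Hochberg adjustment over all genes at 0.05, and the fit was tested on simulated data. Rows outside the gene table were fitted the same way over all rows. ± beside a difference is its SE. Precision is limited by having 4 arrays a group, and a gene's SE had a median of 0.15.

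Members and lists were chosen with earlier results of these data known. Lists are described by counts and medians, with no test. Members named were the 10 of smallest p in each direction and a fixed set of stalk, 5S, paralog and related genes, and up to 2 genes of each pathway list. RefSeq sequences and positions are of GRCm38.p6. The table used for snoRNA hosts gives no strand. Rps27a and Rack1 were not analysed here. Alternatives were dim rows left out, trended and robust variance, array weights, quantile normalization, a block on replicate number, median centring, other row rules and each array left out in turn.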

Additional observations from a re-analysis of the deposited data

Results flagged for a closer look

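Dixon's ratio compared the extreme array of a group with its 3 fellows. Of 76 sets of 4 values, 6 had an array that stood apart, where chance flags about 1 in 20 (3.8 expected). On rTF replicate 3, Rps25 had a log2 level of 6.79 (6.39 to 6.44 on the other rTF arrays), Rpl26 at 5.71 (5.02 to 5.11) and Rpl3 at 10.50 (10.28 to 10.29). On rCPS1 replicate 3, Rpl32 was at 9.21 (the other rCPS1 arrays 9.30 to 9.31) and Rps16 at 3.34 (3.95 to 4.04). On rCPS1 replicate 4, Rps15 was at 2.23 (3.01 to 3.08). Without rTF replicate 3 the log2 difference of Rps25 was -0.21, and without rCPS1 replicate 4 that of Rps15 was -0.43. For Rpl32 it was -0.22 without rCPS1 replicate 3.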

How the results depend on the processing

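No member was called under any of the 16 alternatives. The median log2 difference of the members stayed below 0 in each of them. With each array centred on its own median it was -0.16 (small subunit -0.17), where the median of all genes was -0.058, and with the mean of all single-symbol rows the small subunit was at -0.081. With 1 array left out the members' median ran from -0.15 to -0.066, that of the large subunit from -0.15 to -0.065 and that of the small subunit from -0.16 to -0.086. Members with an unadjusted p under 0.05 then numbered 1 to 7 lower and 0 to 1 higher, and 1 was higher with trended and robust variance or array weights. Same-numbered arrays of the groups did not deviate together (r = -0.12, -0.033, -0.0053 and 0.025). Pairs of unlike number ran from -0.16 to 0.19, so this check cannot tell whether the numbers mark a shared batch or mouse. With the replicate block 2 members were lower and 1 higher at an unadjusted p under 0.05, and the block left the median as it was. Of 33 named members 14 changed sign in some alternative. With rows of several symbols added, differences were -0.049 for Rpl26, -0.17 for Rpl27a, 0.0046 for Rpl5, -0.10 for Rplp2, -0.14 for Rps16 and -0.045 for Rps27. With quantile normalization Rpl26 was at -0.0079 and Rps16 at -0.0063. With the mean of rows Rpl7 was at 0.076 and Rplp0 at 0.019. With 1 array left out, the ranges were -0.033 to 0.21 for Rpl26, -0.014 to 0.092 for Rpl27a, -0.017 to 0.27 for Rpl32l, -0.081 to 0.23 for Rpl37, -0.28 to 0.029 for Rpl39l, -0.16 to 0.024 for Rpl3l, -0.021 to 0.33 for Rplp2, -0.11 to 0.21 for Rps16, -0.047 to 0.44 for Rps27, -0.19 to 0.015 for Rps27l and -0.14 to 0.28 for Rps4l. The cause of these changes was not tested, beyond the rows or arrays left out.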
